A study of Mus musculus with 27 samples.

Results

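Histone H3 trimethylated at lysine 9 (H3K9me3) was profiled in mouse embryonic fibroblasts (MEFs), in pre-iPSCs, which are partially reprogrammed colonies, and in induced pluripotent stem cells (iPSCs). These 3 H3K9me3 libraries, 1 for each cell type and all taken by antibody label, are the subject here, out of 27 samples in the series, of which 21 were chromatin libraries. The other chromatin libraries used for comparison were 6 for total H3, 6 for H3K4me3 and 6 for H3K27me3, and 6 RNA libraries gave expression. With 1 H3K9me3 library in each cell type no difference in H3K9me3 between cell types could be tested, and the values below describe these libraries.

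By the labels, MEFs came from e13.5 embryos that were hemizygous for an Oct4-GFP transgene and for a Rosa26 allele, bred from transgenic males of CBA/CaJ and C57BL/6J background and females of 129Sv/Jae. Pre-iPSCs and iPSCs were induced from fibroblasts with 4 Yamanaka factors carried by retrovirus and were expanded on layers of MEFs treated with mitomycin C, so that all groups shared the fibroblast origin. They came from 2 clones of pre-iPSCs and the iPSCs derived from them, and which clone gave which library is not stated in the sources used here. In the RNA libraries Col1a1, the main fibroblast collagen gene, was at 2144 and 1614 FPKM for MEFs, 93.7 and 27.7 FPKM for pre-iPSCs and 74.7 and 70.6 FPKM for iPSCs. Nanog, a transcription factor of the pluripotent state, was listed at 0 in both MEF libraries, at 0.519 and 0 FPKM in pre-iPSCs and at 49.5 and 73.6 FPKM in iPSCs. In such bulk samples fewer cells of a type and less RNA or mark per cell cannot be told apart.

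H3K9me3 is the hallmark of constitutive heterochromatin. It is written by the enzymes Suv39h1 and Suv39h2 at the tandem repeats around centromeres, and by Setdb1, which is brought by KRAB zinc finger proteins and their partner Trim28 to retrotransposons, imprinted control regions and the zinc finger genes themselves. HP1 proteins bind the mark and compact the chromatin, and in reprogramming H3K9 methylation is known as a barrier to the pluripotent state.

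Each library was a list of nucleosome positions with the number of reads at each. The lists held 6681242 positions and 12404217 reads in MEFs, 6838404 positions and 12942154 reads in pre-iPSCs, and 6610507 positions and 12222861 reads in iPSCs, and 48.5%, 46.5% and 49.1% of the positions rested on 1 read. Reads were summed by the nucleosome centre in bins of 10 kb, within 2500 bp of each transcription start site (TSS), and over gene bodies, and are given as normalised reads, that is, reads scaled to a library of 10000000 reads. Of 265500 bins, 209051 held at least 40 reads in some H3K9me3 library. Of 20155 genes, 8330 had at least 30 reads around the TSS and 12786 had at least 60 over the body. A region was called 2-fold changed when the log2 ratio of normalised reads, with 5 added to both, was at least 1 in size and the higher library held that minimum of reads. A region low in 1 library could reach the minimum only through the other, and could then be called in 1 direction only. Intervals in brackets are 95% exact intervals, which cover counting error only.

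Several libraries stood apart. Chromosome 8 took 5.16% of H3K9me3 reads in MEFs, 5.31% for pre-iPSCs and 7.45% for iPSCs, and 7.78% in iPSC H3 replicate 1 but 5.25% in iPSC H3 replicate 2. Chromosome X took 4.12% of H3K9me3 reads in MEFs and 2.52% in both reprogrammed types, where the MEF H3 libraries gave 3.23% and 3.58%. Pre-iPSC H3 replicate 1 tracked base composition (Spearman rho of 0.903 with GC content over bins, a description over regions of 1 library), and 42.4% of bins differed 2-fold between the pre-iPSC H3 replicates, against 0.0732% in MEFs and 1.32% in iPSCs. The H3K9me3 libraries had rho of 0.28 for MEFs, 0.639 for pre-iPSCs and 0.627 for iPSCs with GC content. In the 153 bins where the MEF H3 replicates differed 2-fold, the MEF H3K9me3 library lay nearer replicate 2 in 150, as did the pre-iPSC library in 87745 of 88619 such bins (99%) and the iPSC library in 2305 of 2757 (83.6%). Values below with the mean H3 difference subtracted therefore include replicates that the H3K9me3 libraries resembled less. Where a pair of H3 values is given for a cell type, replicate 1 comes first.

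Sequences are shown as examples of the kinds of region described below, all read from the mm9 genome and printed 5′ to 3′. The first 2 show a repeat with high H3K9me3 in MEFs and less in reprogrammed cells, a stretch of chr2:98507215-98507514 (+ strand, around a position with 1367 MEF reads) and a copy from chr9:3000401-3000634 (+ strand). Neither lies in a gene of the expression table. Capitals mark bases in runs of 24 bases that the chromosome 2 bin and the chromosome 9 region share on either strand, 228 bases in the first and 195 in the second.
chromosome 2 repeat: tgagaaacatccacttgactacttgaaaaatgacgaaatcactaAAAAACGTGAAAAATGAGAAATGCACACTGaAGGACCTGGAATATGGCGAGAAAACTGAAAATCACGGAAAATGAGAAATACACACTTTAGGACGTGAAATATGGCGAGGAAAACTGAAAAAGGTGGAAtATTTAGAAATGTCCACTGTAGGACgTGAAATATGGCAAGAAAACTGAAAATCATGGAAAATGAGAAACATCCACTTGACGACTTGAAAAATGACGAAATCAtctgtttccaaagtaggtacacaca
chromosome 9 repeat: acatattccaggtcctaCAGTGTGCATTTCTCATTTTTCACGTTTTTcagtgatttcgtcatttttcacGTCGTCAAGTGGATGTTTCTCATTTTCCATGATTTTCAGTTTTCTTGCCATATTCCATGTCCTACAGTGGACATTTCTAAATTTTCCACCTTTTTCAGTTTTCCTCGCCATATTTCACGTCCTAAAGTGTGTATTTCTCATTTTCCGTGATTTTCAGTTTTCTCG

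The next 2 show why the zinc finger genes are recognisable in sequence, from Zfp382 (chr7:30919207-30919458, + strand) and Zfp12 (chr5:144006747-144006998, + strand). The body of Zfp382 was not among those called 2-fold lower below, and its stretch lies just outside the region described with Zfp146. Capitals mark GAG, AAN, CCN and TA in a row (N is any base). This pattern can encode, but is not limited to, the Glu-Lys-Pro-Tyr of the linker between adjoining zinc fingers. Searched on both strands, it was present in 8.3% of all 10-kb bins, and 451 bins (0.17%) held it at least 5 times.
Zfp382: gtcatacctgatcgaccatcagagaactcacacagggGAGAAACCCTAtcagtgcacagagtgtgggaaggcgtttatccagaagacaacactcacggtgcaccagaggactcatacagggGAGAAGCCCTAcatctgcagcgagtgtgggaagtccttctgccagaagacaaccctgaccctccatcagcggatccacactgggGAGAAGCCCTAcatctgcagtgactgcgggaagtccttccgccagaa
Zfp12: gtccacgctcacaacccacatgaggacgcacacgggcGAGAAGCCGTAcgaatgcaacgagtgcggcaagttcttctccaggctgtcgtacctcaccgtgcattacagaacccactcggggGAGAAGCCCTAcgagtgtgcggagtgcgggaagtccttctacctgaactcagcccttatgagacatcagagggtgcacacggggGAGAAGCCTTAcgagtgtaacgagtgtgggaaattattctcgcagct

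The last is part of the window around the TSS of Peg3, an imprinted zinc finger gene (chr7:6682679-6682978, - strand). Capitals mark TGCCGC on either strand, the motif known to be bound by Zfp57, the zinc finger protein that recruits H3K9 methylation to imprinted control regions. The window of 2500 bp either side of the Peg3 TSS held 8 copies, as many as or more than in all but 0.268% of TSS windows, whose median was 1.
Peg3: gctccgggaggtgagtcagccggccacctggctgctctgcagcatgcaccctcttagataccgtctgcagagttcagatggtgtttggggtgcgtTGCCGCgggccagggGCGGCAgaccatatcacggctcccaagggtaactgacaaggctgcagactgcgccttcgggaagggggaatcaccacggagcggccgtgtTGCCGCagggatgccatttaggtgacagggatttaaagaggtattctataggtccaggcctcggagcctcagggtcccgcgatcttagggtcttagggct

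The satellite-like repeat had high H3K9me3 in MEFs and much less in reprogrammed cells. Over chr9:3000001-3040000, whose sequence repeats with a unit of 234 bases (69.4% of bases equal at that offset), the level was 1789 normalised reads per bin in MEFs, 354 for pre-iPSCs and 417 for iPSCs. MEFs stood 5.05-fold above pre-iPSCs [4.8 to 5.31] and 4.29-fold above iPSCs [4.08 to 4.5], whereas pre-iPSCs and iPSCs lay close together. H3 over the same bins was 253 and 194 for MEFs, 108 and 171 for pre-iPSCs and 175 and 170 for iPSCs, a much smaller spread. The bin at chr2:98500001-98510000, which holds 717 stretches of 24 bases shared with that repeat, had 6350, 1281 and 1457 normalised reads in MEFs, pre-iPSCs and iPSCs.

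Counting all 18 bins with at least 50 such shared stretches, H3K9me3 summed to 16552 normalised reads in MEFs (0.166% of the library), 3723 in pre-iPSCs (0.0372%) and 4245 in iPSCs (0.0424%). The sum rested on its highest bins, and not every bin followed it. The 4 bins of chr9:3040001-3080000 lay between 5.64 and 21.8 in MEFs and between 9.82 and 31.9 in iPSCs, and chr12:3110001-3120000 was lower in MEFs, at 16.9, 64.9 and 63. The ratio of H3K9me3 to H3 over these bins was 6.67 and 8.3 for MEFs, 2.73 and 2.04 for pre-iPSCs and 2.19 and 2.33 for iPSCs. The MEF value was higher with either H3 replicate. The H3K4me3 libraries, replicate 1 and then 2, gave 880 and 896 normalised reads per bin over the chromosome 9 repeat in MEFs, 364 and 356 for pre-iPSCs and 364 and 397 for iPSCs, and the H3K27me3 libraries 263 and 219, 240 and 215, and 280 and 254. The MEF excess was thus also present in H3K4me3 and not in H3K27me3, and MEF chromatin was digested with another amount and time of micrococcal nuclease than that of the reprogrammed cells. The part of either in the result was not tested.

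**Figure D1:**
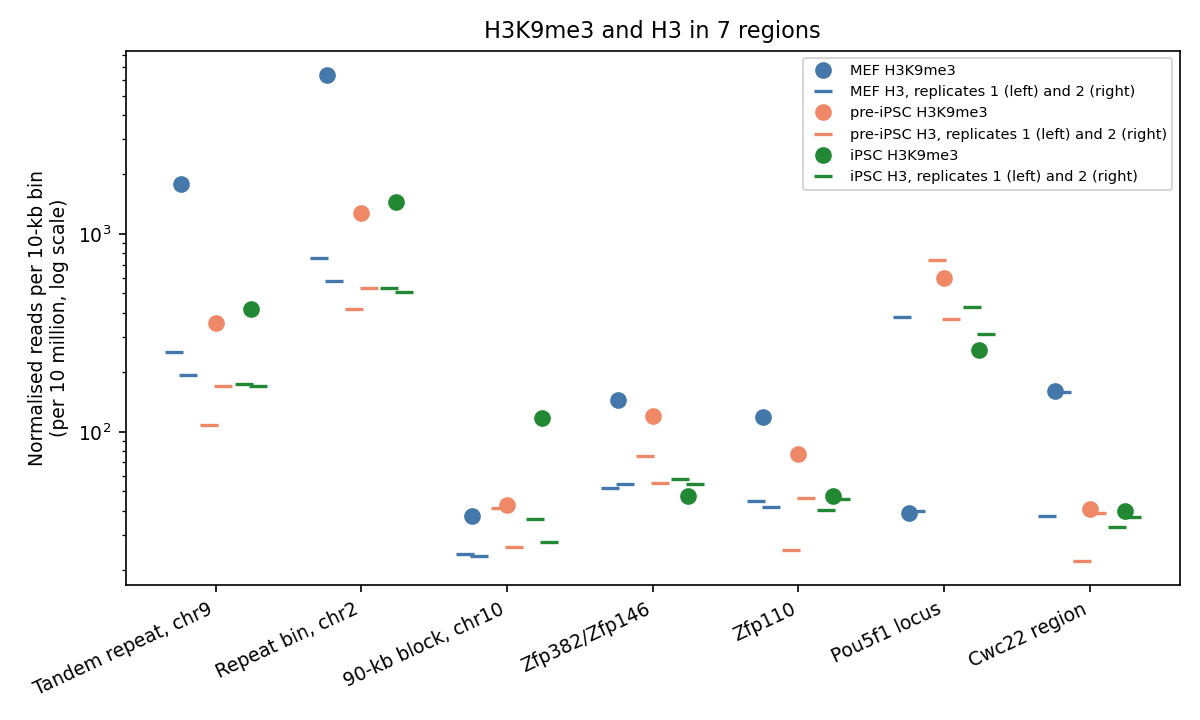
Normalised H3K9me3 reads per 10-kb bin (per 10000000 reads, log scale) over named regions in MEFs, pre-iPSCs and iPSCs (filled circles, 1 library each), with both H3 replicates as short bars. The repeats of chromosomes 2 and 9 lie at 6350 and 1789 in MEFs and well below in the reprogrammed cells, while the chromosome 10 region is highest in iPSCs at 118.

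Across the genome 10-kb bins differed little. From MEFs to pre-iPSCs 1681 of 204218 bins with enough reads were 2-fold higher (0.823%) and 1280 lower (0.627%). Between pre-iPSCs and iPSCs 1190 of 192445 were higher (0.618%) and 251 lower (0.13%) in the latter, and from MEFs to iPSCs 3313 of 199946 were higher (1.66%) and 2064 lower (1.03%). Each library enters 2 of these comparisons, so they are not independent. Chromosome X held 763 of the 1280 bins that were lower in pre-iPSCs than in MEFs (59.6%) and 1072 of the 2064 lower in iPSCs than in MEFs (51.9%). Chromosome 8 held 400 of the 1190 bins higher in iPSCs than in pre-iPSCs (33.6%) and 1197 of the 3313 higher in iPSCs than in MEFs (36.1%). H3 was lower on chromosome X in both replicates of the reprogrammed cells (1.31% to 2.59% of reads). On chromosome 8 it was 7.78% in iPSC replicate 1, 5.79% in pre-iPSC replicate 1 and 5.17% to 5.25% in the other H3 libraries. The number of copies and the mark cannot be told apart on these chromosomes. As a yardstick, H3K4me3 replicates of 1 cell type differed 2-fold in 0.129% to 0.329% of bins and H3K27me3 replicates in 0.148% to 0.514%. H3 replicates differed in 0.0732% of bins for MEFs, 1.32% for iPSCs and 42.4% for pre-iPSCs. These yardsticks count both directions together, whereas the H3K9me3 shares above are for 1 direction. All of those shares but the 0.13% lay above the H3K4me3 and H3K27me3 values, and all lay below the pre-iPSC H3 value. With the mean H3 difference subtracted the splits were 8882 higher and 2207 lower, 711 and 3152, and 1381 and 863 in the same order, so that the balance between pre-iPSCs and iPSCs turned. Bins that changed 2-fold beyond H3 in each of 4 pairings of H3 replicates numbered 65 higher and 33 lower from MEFs to pre-iPSCs, 118 and 26 from pre-iPSCs to iPSCs, and 346 and 144 from MEFs to iPSCs.

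Some of the longest changed stretches followed H3. Over chr2:77710001-77850000, which holds Cwc22, a splicing factor gene, the H3K9me3 level was 174 normalised reads per bin in MEFs, 42.1 for pre-iPSCs and 42 for iPSCs. H3 there was 39.3 and 171 in MEFs, so that MEF replicate 2 resembled the H3K9me3 library and replicate 1 resembled the reprogrammed cells (23.4 and 40.1 in pre-iPSCs, 34.9 and 38.3 in iPSCs). The reverse held over Skint4, an immunoglobulin-like gene of skin epithelium, whose body had 2.42 normalised reads (3 reads) in MEFs, 130 for pre-iPSCs and 157 for iPSCs. MEF H3 was at 157 in replicate 1 and 0.24 in replicate 2. The pre-iPSC to MEF ratio of 53.7 [18.1 to 263] thus appeared between MEF H3 replicates as well. The bodies of Skint3, Skint9 and Gm4788 and a stretch of chromosome 3 in Nlgn1 had the same layout. Over the body of Mid1, a ubiquitin ligase gene of chromosome X, H3K9me3 was 1416 for MEFs, 419 for pre-iPSCs and 519 for iPSCs, with MEF H3 at 331 and 1045. At these loci a difference in copy number or strain between MEF preparations and a difference in H3K9me3 cannot be told apart.

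The longest runs with more H3K9me3 in iPSCs than in MEFs lay on chromosome 8 and followed H3 replicate 1. Over chr8:87220001-87350000, with Nfix, Lyl1, Dand5 and Trmt1, H3K9me3 was 25.3, 43.9 and 81.6 normalised reads per bin, and over chr8:124740001-124840000, with Zfpm1, it was 30, 61.5 and 97.5. H3 went from 36.4 in MEFs to 144 in iPSCs and from 43.2 to 197 in replicate 1, and from 35.1 to 52.3 and from 41.4 to 57.9 in replicate 2. Elsewhere the differences in H3 were smaller. A long run lay at chr10:82860001-82950000, without a gene of the expression table, at 37.6 normalised reads per bin in MEFs, 42.8 for pre-iPSCs and 118 for iPSCs. The iPSC library was 2.75-fold above pre-iPSCs [2.47 to 3.05], where H3 was 24.2 and 23.5, 41 and 26.1, and 36.4 and 27.9 in the 3 cell types. A stretch of chr16:3640001-3670000 showed the same order at 41.9, 48.9 and 142, a 2.9-fold difference between iPSCs and pre-iPSCs [2.45 to 3.44]. In iPSCs H3K4me3 also lay higher at these 2 places, at 87.8 and 50.9 on chromosome 10 against 44.9 and 39.1 in pre-iPSCs, and at 126 and 68.2 on chromosome 16 against 41.1 and 26.2. The part of H3K4me3 in these values was not tested.

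Among genes, the body of Haus4, a subunit of the augmin complex of the mitotic spindle, had 82.2, 87.3 and 255 normalised reads in MEFs, pre-iPSCs and iPSCs, 2.92-fold more in iPSCs than in pre-iPSCs [2.35 to 3.66]. Gm7120 had 247, 210 and 594, and there H3K4me3 was 202 and 142 for pre-iPSCs against 459 and 239 for iPSCs. At the TSS of Ept1, an enzyme of phosphatidylethanolamine synthesis, the 3 libraries gave 12.1, 11.6 and 59.7, and iPSCs stood 5.15-fold above pre-iPSCs [2.93 to 9.67]. Clcn4-2, a chloride and proton exchanger, rose in steps of 8.87, 27.8 and 90, and its expression was lower in iPSCs than in MEFs (log2 fold change of -2.53 ± 0.36 SE, limma adjusted p = 0.00366, n = 2 and 2), falling from 13.9 and 24.3 FPKM to 2.05 and 2.74 FPKM. H3 at Clcn4-2 was 12.2 and 3.5 for MEFs, 76.1 and 13.1 for pre-iPSCs and 50.9 and 19 for iPSCs. Haus4 and Ept1 had no called change in expression between any 2 cell types (limma adjusted p between 0.117 and 0.832), and Gm7120 was called lower in iPSCs than in MEFs (log2 fold change of -1.59 ± 0.37 SE, limma adjusted p = 0.0194).

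Some regions were highest in pre-iPSCs. Over chr13:99670001-99700000 in Tnpo1, a nuclear import receptor gene, the level was 30.4 for MEFs, 96.3 for pre-iPSCs and 31.9 for iPSCs, and pre-iPSCs stood 3.17-fold above MEFs [2.56 to 3.95] and 3.02-fold above iPSCs [2.45 to 3.75]. At chr17:6940001-6970000, with Ezr, a linker of membrane and actin, and Sytl3, the values were 44.3, 132 and 43.6. At chr2:168560001-168590000, with Atp9a, a lipid flippase gene, and the pluripotency gene Sall4, they were 50.8, 93 and 34.6. Pre-iPSC H3 replicate 2 gave 47.2, 42.1 and 43.5 normalised reads at these 3 places against 32.3, 46.4 and 47.9 in MEF replicate 2, a smaller difference than in H3K9me3 at each. Pre-iPSC H3 replicate 1 gave 55.1, 170 and 125, so 2 of the 3 were high in the library that tracked GC content. H3K4me3 was 119 and 104, 148 and 101, and 118 and 86 in pre-iPSCs there, against 88.6 and 66.2, 46.1 and 43.9, and 45.8 and 47.6 in MEFs, and its part in the result was not tested. Around the TSSs of Dcdc2a, a neuronal microtubule gene, and Esam, an endothelial adhesion gene, H3K9me3 was 27.4, 68.8 and 16.4 and 28.2, 70.3 and 20.5. The body of Polrmt, the mitochondrial RNA polymerase gene, had 123, 187 and 54. Pre-iPSC H3 replicate 1 was high at these 3 genes too, at 58.9, 93.4 and 283 for Dcdc2a, Esam and Polrmt against 21.1, 23.4 and 47.9 in MEF replicate 1, while replicate 2 gave 24, 22.4 and 49.3 against 22.5, 25.2 and 47. With replicate 1 the ratio of H3K9me3 to H3 over Polrmt was highest in MEFs, at 2.57, 0.661 and 0.407, and with replicate 2 it was highest in pre-iPSCs, at 2.62, 3.79 and 0.978.

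Genes of zinc finger proteins, which are known to be coated with H3K9me3, made up a large share of the gene bodies that were lower in iPSCs. Over all genes, 26 of 12603 bodies were 2-fold lower in iPSCs than in pre-iPSCs (0.206%) and 22 higher (0.175%). Among the 288 zinc finger genes of the list with enough reads, 13 were lower (4.51%) and 0 were higher, so they made up 50% of all lower bodies. Of these 13, 7 lay on chromosome 7, and several were close neighbours, such as Zfp784 and Zfp865 or Zfp12 and Zfp316. Neighbours were counted singly, so the counts of zinc finger genes here are not counts of separate loci. From MEFs to iPSCs 57 of 12361 bodies were lower (0.461%) and 352 higher (2.85%), and of 265 zinc finger genes 18 were lower (6.79%) and 3 higher (1.13%). From MEFs to pre-iPSCs 25 of 12558 bodies were lower (0.199%) and 158 higher (1.26%), and of 286 zinc finger genes 2 were lower (0.699%) and 10 higher (3.5%). Scaled by the median gene body instead of the library total, all bodies split into 36 higher and 119 lower from MEFs to pre-iPSCs, 34 and 20 from pre-iPSCs to iPSCs, and 155 and 155 from MEFs to iPSCs. With the mean H3 difference subtracted the splits were 129 higher and 307 lower, 33 and 51, and 17 and 79, so that the balance against MEFs turned to mostly lower. The median log2 ratio of zinc finger bodies with enough reads was -0.29 from pre-iPSCs to iPSCs, beside -0.07 for other genes, and -0.15 from MEFs to iPSCs, beside 0.18. The median GC content was 43.5% for zinc finger bodies and 44.8% for the others in the first of these comparisons. The list was matched by gene name and was chosen with these results in view.

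Of the 25 zinc finger genes 2-fold lower in iPSCs in either comparison, 6 were lower in both. Over Zfp146 the level was 98.4 normalised reads in MEFs, 95 for pre-iPSCs and 32.7 for iPSCs, with H3 between 34.6 and 65.8 in all 6 libraries. MEFs stood 3.01-fold above iPSCs [2.09 to 4.41] and pre-iPSCs 2.9-fold [2.02 to 4.26], of which the first exceeded H3 2-fold in all replicate pairings and the second did not. Zfp260 had 95.9, 124 and 40.9 with H3 between 42.1 and 68.4, and its level in iPSCs was near that of H3. Zfp12 had 131, 168 and 58.1 with H3 at 50.3 and 63.1 for MEFs, 183 and 69.6 for pre-iPSCs and 106 and 66.2 for iPSCs. As at Zfp146, its fall from MEFs exceeded that of H3 in all replicate pairings and its fall from pre-iPSCs did not. Zfp945, on chromosome 17, had 168, 109 and 56.5, a fall from MEFs that did not exceed H3 in all pairings, and Zfp58 and Zfp110, named here after their values were seen, had 94.3, 78.8 and 31.9 and 214, 164 and 83.5. Other genes were highest in pre-iPSCs and about as low in MEFs as in iPSCs, or lower. Zfp668 had 25, 138 and 45.8, with H3 at 42.9 and 41.3, 121 and 49.9, and 76.8 and 53.5. Zfp444 and Zfp787, also named after their values were seen, had 71.7, 214 and 85.1 and 101, 273 and 105, and these 3 falls from pre-iPSCs did not exceed H3 in all pairings. The fall exceeded that of H3 2-fold in all 4 replicate pairings for 12 of the 18 genes lower than in MEFs, against 5 of the 39 other genes lower than in MEFs, and for 3 of the 13 lower than in pre-iPSCs, against 0 of the other 13.

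H3K4me3 was also lower in iPSCs at several of these genes. Over the body it was 139 and 128 normalised reads for MEFs and 81.5 and 91.8 for iPSCs at Zfp260, and 204 and 225 against 86.9 and 99.9 at Zfp110. Around the TSS edgeR called H3K4me3 lower in iPSCs than in MEFs at Zfp146, Zfp260, Zfp192, Zfp943 and Zfp944 (adjusted p between 0.019 and 0.0451, n = 2 and 2), beside 9.06% of all windows tested. Over chr7:30920001-30950000, with Zfp382 and Zfp146, H3K9me3 was 145, 120 and 47.2 normalised reads per bin. H3K4me3 was 89.9 and 137 for MEFs, 157 and 104 for pre-iPSCs and 61.5 and 80.4 for iPSCs. The part of H3K4me3 in the result was not tested. Of the listed genes lower in either comparison with iPSCs, Zfp185 on chromosome X was the one with a called change in expression. It was higher in iPSCs than in MEFs (log2 fold change of 2.01, limma adjusted p = 0.0101, n = 2 and 2). Zfp185 entered the list by its name, and its fall in H3K9me3 did not exceed H3 2-fold in all pairings. Zfp146 was at 22.9 and 3.34 FPKM for MEFs, 15.1 and 9.7 FPKM for pre-iPSCs and 4.37 and 8.71 FPKM for iPSCs, and was not called in any comparison (limma adjusted p between 0.565 and 0.786).

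**Figure D2:**
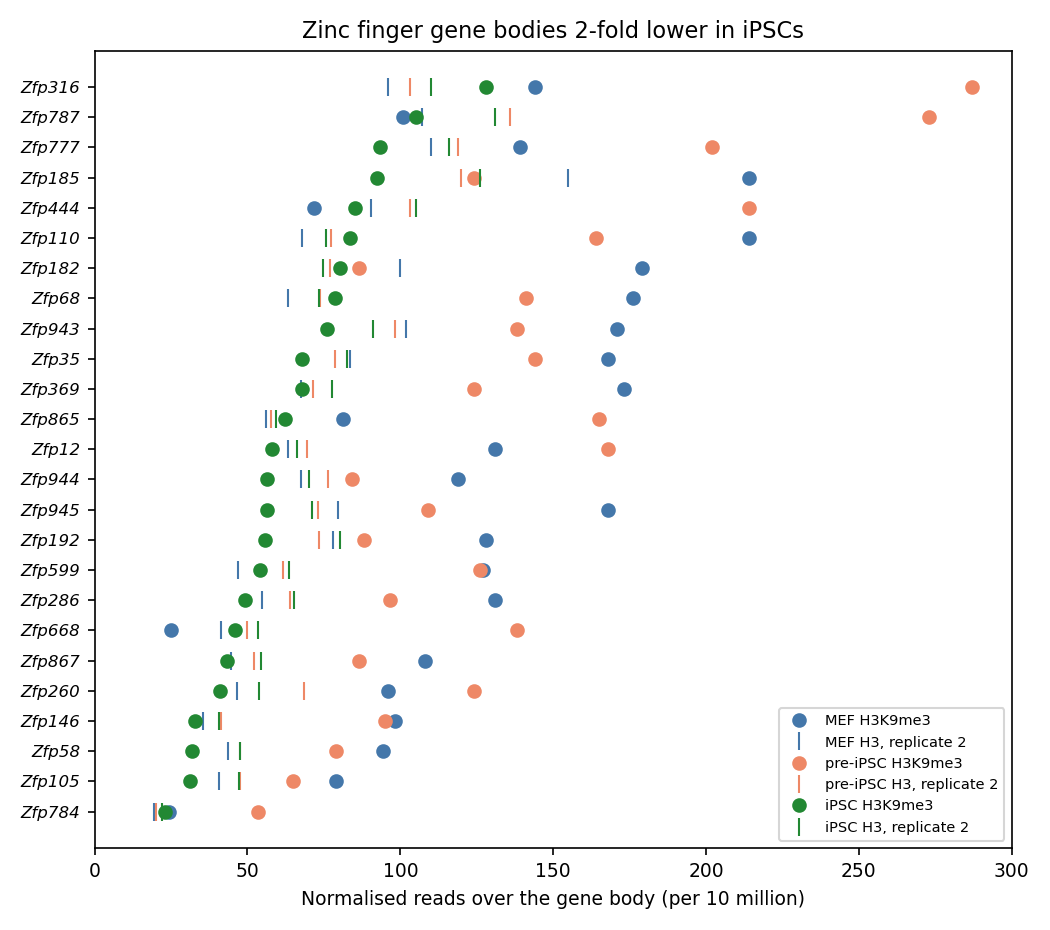
Normalised H3K9me3 reads over the bodies of zinc finger genes that were 2-fold lower in iPSCs than in pre-iPSCs or MEFs (circles, 1 library per cell type), with H3 replicate 2 of each cell type as a vertical bar. The genes were chosen by these values, and in iPSCs most lie near this H3 replicate, as Zfp146 does at 32.7 beside 40.6.

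Around TSSs H3K9me3 reads were fewest at the most active genes. Genes were grouped in each cell type by their FPKM in RNA replicate 1, with 1008 genes in the highest 5% and 6150, 5224 and 4867 genes listed at 0 in MEFs, pre-iPSCs and iPSCs. The mean level within 2500 bp was 11.5 normalised reads in the highest 5% and 22 in genes at 0 in MEFs, 15.7 and 19.1 for pre-iPSCs, and 17.2 and 19.7 for iPSCs. The ratio of these 2 means was 1.92, 1.22 and 1.14. Before H3 is considered, the contrast between silent and active genes was thus widest in MEFs. Within 500 bp of the TSS the ratio was 2.78, 2.05 and 1.64. In the highest 5% the level at the centre was 0.591, 0.504 and 0.621 of that at 1500 to 2500 bp, and in genes at 0 it was 1.01, 1.01 and 1.05. No H3 values are given here for the centre, and the study describes active TSSs as free of nucleosomes. Fewer nucleosomes and less of the mark on them therefore cannot be told apart at the centre. H3 replicate 2 within 2500 bp gave means of 13.8 and 19.8, 15.2 and 18.3, and 17.9 and 18.5 for the same 2 classes, a contrast in the same direction. H3 replicate 1 gave 14.6 and 19.3 for MEFs, but 31.1 and 24.2 for pre-iPSCs and 27.9 and 19.9 for iPSCs, the opposite direction in both reprogrammed types. Set against H3, the contrast was widest in MEFs with replicate 2 but not with replicate 1.

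**Figure D3:**
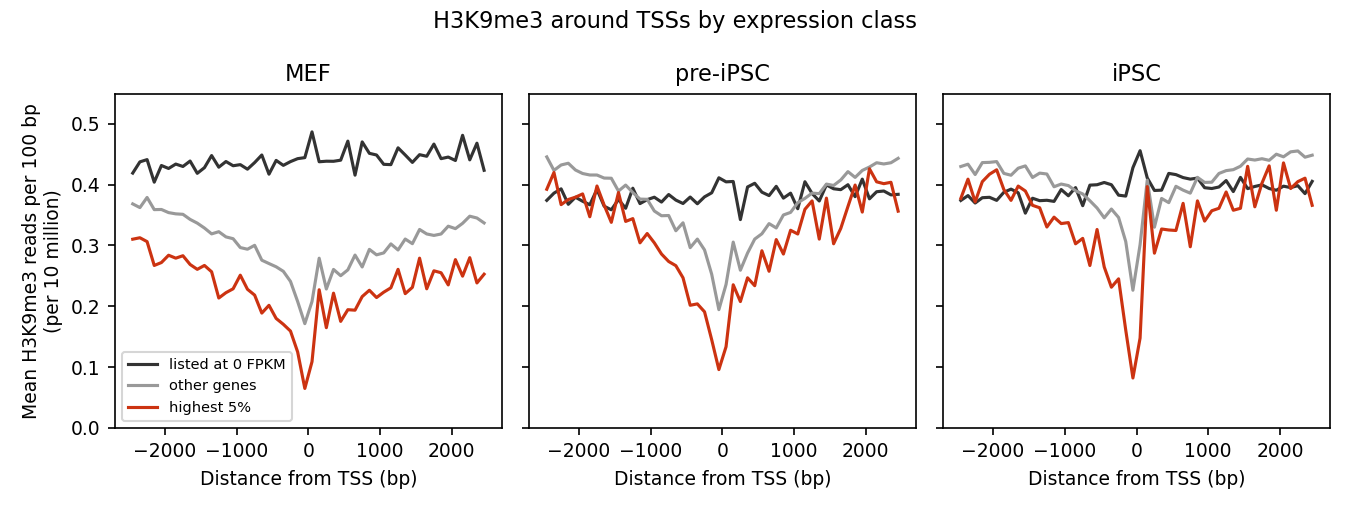
Mean H3K9me3 reads per 100 bp (per 10000000 reads) against distance from the TSS in bp, for genes listed at 0 FPKM, other genes and the highest 5% by expression, in 1 panel per cell type. The dip at the centre is seen in expressed genes in all 3 panels, and genes at 0 are flat, with a centre to flank ratio of 1.01, 1.01 and 1.05. H3 is not drawn.

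Among genes tested for expression, calls were mostly of higher expression where H3K9me3 was lower at a TSS, and the reverse where it was higher. Over all 20155 TSS windows the median log2 ratio was 0.13 from MEFs to pre-iPSCs, 0.06 from pre-iPSCs to iPSCs and 0.20 from MEFs to iPSCs, so levels were slightly higher in reprogrammed cells on this scale. From MEFs to pre-iPSCs 249 of 6711 windows were 2-fold higher (3.71%) and 109 lower (1.62%). Between pre-iPSCs and iPSCs 153 of 7433 were higher (2.06%) and 43 lower (0.579%) in the latter, and from MEFs to iPSCs 651 of 7085 were higher (9.19%) and 117 lower (1.65%). Scaled by the median window the splits were 222 higher and 116 lower, 85 and 84, and 347 and 219, and with the mean H3 difference subtracted they were 104 and 764, 219 and 72, and 60 and 244. For comparisons with MEFs the subtraction thus turned the balance from mostly higher to mostly lower. Expression was tested by limma in 12400 genes, of which 7.39% were called higher and 9% lower from MEFs to pre-iPSCs, 3.91% and 4.71% from pre-iPSCs to iPSCs, and 10.3% and 15.5% from MEFs to iPSCs, at an adjusted p below 0.05 and 2-fold. These calls depended on the filter on low values, since without it limma called 0, 170 and 549 genes in place of 2032, 1069 and 3205 (4116 at an unadjusted p under 0.05 in the first comparison), and leaving out 1 library gave 1071 to 2909, 90 to 2275 and 1117 to 3716. All expression calls given here, those of single genes included, are with the filter and all libraries.

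Where H3K9me3 fell from MEFs to pre-iPSCs, 26 of 49 genes tested were called higher in expression (53.1%) and 0 lower. This compares with 14.5% higher and 14% lower among the 2458 tested genes with enough H3K9me3 reads. Of the 109 windows with this fall, only those 49 passed the filter of a mean of 0.5 FPKM. A gene silent in the first cell type could pass it only through cells that expressed it, and could then only be called higher. The direction of calls among the falls given here was thus in part set by the filter. Where H3K9me3 rose, 8 of 211 were higher (3.79%) and 59 lower (28%). Of the 249 windows with this rise 211 passed the filter, against 2458 of the 6711 windows with enough reads. A gene silent in the second cell type could likewise pass only through cells that expressed it, and could then only be called lower. The direction of calls among the rises was thus also in part set by the filter, and the shares of all tested genes are not a like baseline. Between pre-iPSCs and iPSCs 9 of 29 genes with a fall were higher (31%) and 0 lower, and of 111 with a rise 1 was higher (0.901%) and 26 lower (23.4%), beside 7.66% and 7.3%. From MEFs to iPSCs 30 of 49 genes with a fall were higher (61.2%) and 1 lower (2.04%), and of 557 with a rise 24 were higher (4.31%) and 171 lower (30.7%), beside 17% and 20.6%. Without chromosome X the falls gave 23 of 37 and 23 of 38 higher in pre-iPSCs and iPSCs against MEFs, and without chromosome 8 the rises to iPSCs gave 139 of 366 lower (38%). Among windows with a rise from MEFs to iPSCs, H3 moved too, by a median log2 of 1.07 in replicate 1 and 0.33 in replicate 2, and its part was not tested. Windows that fell beyond H3 in all 4 pairings gave 7 of 12 genes higher and 0 lower in expression from MEFs to pre-iPSCs, 1 of 2 and 0 from pre-iPSCs to iPSCs, and 9 of 17 and 0 from MEFs to iPSCs. Windows that rose beyond H3 gave 1 gene higher and 1 lower of 6, 0 and 0 of 2, and 0 and 2 of 6 in the same order, numbers too small to show a direction.

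**Figure D4:**
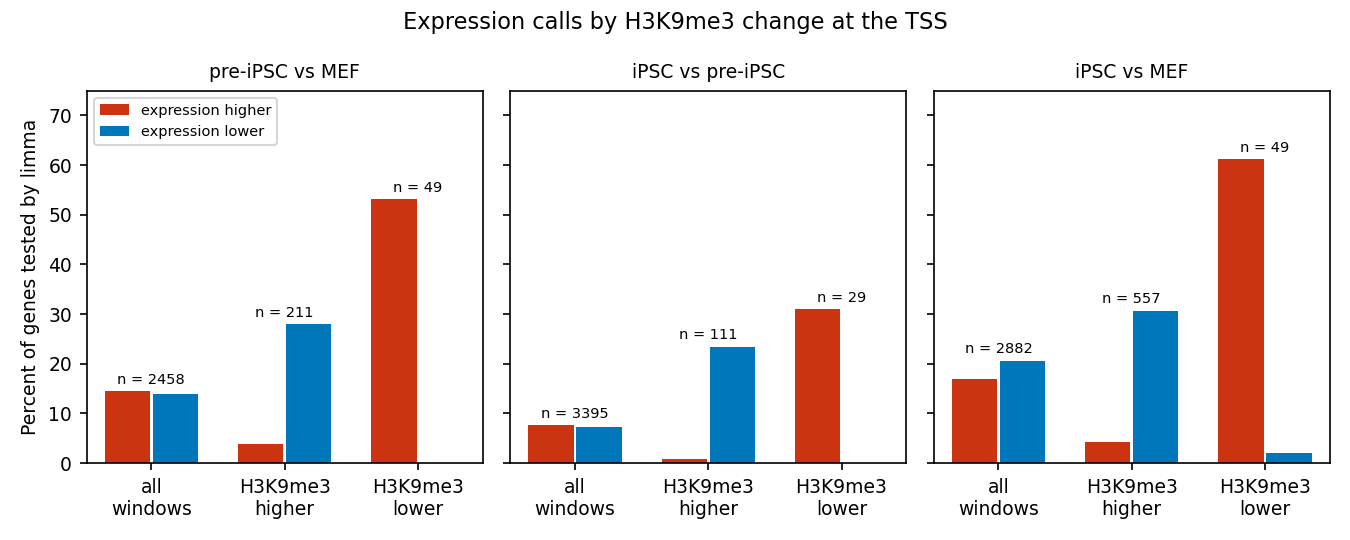
Percent of genes tested by limma that were called higher or lower in expression, for all TSS windows with enough H3K9me3 reads and for windows where H3K9me3 was 2-fold higher or lower, in 1 panel per comparison. Bars for windows with lower H3K9me3 reach 53.1%, 31% and 61.2% higher, and bars for windows with higher H3K9me3 are mostly calls of lower expression.

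Single genes with a change in both measures are given next. At Slc38a5, an amino acid transporter on chromosome X, H3K9me3 was 33.9, 3.86 and 13.9 normalised reads in MEFs, pre-iPSCs and iPSCs. MEFs stood 8.76-fold above pre-iPSCs [3.47 to 28.4], and expression went from 0 and 0.174 FPKM in MEFs to 553 and 369 FPKM for pre-iPSCs and 0.61 and 0.296 FPKM for iPSCs. In iPSCs the transcript was back near the MEF level (log2 fold change of 0.41, limma adjusted p = 0.463, n = 2 and 2) and the mark lay between the other two cell types. Cited1, a transcriptional coactivator also on chromosome X, had 30.6, 4.64 and 13.9 with 0.24 and 0.184, 5.61 and 15.5, and 1.84 and 0.838 FPKM. Pcsk1n, an inhibitor of a prohormone convertase and likewise on chromosome X, had 42.7, 9.27 and 10.6, and Zic5, a neural zinc finger gene on chromosome 14, had 33.9, 6.95 and 11.5. All 4 were called higher in expression in pre-iPSCs than in MEFs (limma adjusted p of 0.000276, 0.00727, 0.00111 and 0.0185, n = 2 and 2). From MEFs to pre-iPSCs H3 replicate 2 was lower at all 4, from 17.2 to 6.53 at Slc38a5, from 11 to 5.64 at Cited1, from 18.5 to 9.5 at Pcsk1n and from 13.9 to 8.76 at Zic5. H3 replicate 1 changed less or was higher, from 13.6 to 15.1, from 12 to 28.9, from 17.1 to 16.7 and from 16.3 to 21.8.

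At Ooep, an oocyte gene, the level was 28.2, 27 and 7.36 and expression 15.6 and 20.4 FPKM in iPSCs against 0.223 and 0.199 FPKM in pre-iPSCs (limma adjusted p = 0.00168, n = 2 and 2). In the opposite direction, Hic1, a transcriptional repressor of fibroblasts, had 4.84, 34 and 22.1 normalised reads, 7.03-fold more in pre-iPSCs than in MEFs [2.98 to 20.2], and its expression fell from 21.5 and 12.8 FPKM to 3.13 and 1.06 FPKM (adjusted p = 0.00551). H3 at Hic1 was 10.7 and 11.2 in MEFs and 62.8 and 11 in pre-iPSCs, so replicate 2 did not move. Runx2, the osteoblast transcription factor, and Tpm2, a tropomyosin of contractile cells, are named after their values were seen, with iPSCs 7.86-fold [2.78 to 30.7] and 3.95-fold [1.86 to 9.34] above MEFs. Both were lower in expression (adjusted p of 0.00306 and 0.000676).

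H3K4me3 at the same windows, tested by edgeR, was called higher in 6.75%, 0.0363% and 15.1% of 19287 windows in the 3 comparisons and lower in 3.38%, 0.0156% and 9.06%. Most of the 1953 and 4667 calls against MEFs were lost with DESeq2, which made 239 and 1159, and without MEF replicate 1, with 296 and 1652. Among windows where H3K9me3 fell, 26 of 109 from MEFs to pre-iPSCs (23.9%) and 27 of 117 from MEFs to iPSCs (23.1%) were called higher in H3K4me3, beside 15% and 33.8% of all windows with enough H3K9me3 reads. From MEFs to iPSCs the share was therefore below that background, and nothing particular to H3K9me3 can be read from it. Among windows where H3K9me3 rose, H3K4me3 was called lower in 29 of 249 from MEFs to pre-iPSCs (11.6%, beside 1.61%) and in 34 of 651 from MEFs to iPSCs (5.22%, beside 1.75%), and higher in 25 (10%) and 116 (17.8%). From pre-iPSCs to iPSCs edgeR called 10 windows in all, and 0 of them were among the windows with a 2-fold change in H3K9me3.

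Of the pluripotency factors, 33 of the 36 in the list were found. Their median TSS level was 26.6 normalised reads in MEFs, 18.5 for pre-iPSCs and 18 for iPSCs, beside 14.5, 17.8 and 18.8 over all genes. The median log2 ratio was 0.04 from MEFs to pre-iPSCs, with 18 factors higher and 15 lower, and -0.28 from pre-iPSCs to iPSCs, with 12 higher and 21 lower. Without H3 subtracted, these ratios do not place the difference at the first step as the medians do. The list median of H3 was 21.2 and 20.8 for MEFs, 45.8 and 18.4 for pre-iPSCs and 27.3 and 15.9 for iPSCs, so H3 replicate 1 differed by step. Against MEFs 26 of the 33 were lower in iPSCs, whereas 65.5% of all TSS windows were higher. The median log2 ratio of -0.45 from MEFs to iPSCs stayed between -0.39 and -0.60 with H3 subtracted, with the median region as scale and with GC content corrected. Of 21 with enough reads, 2 were 2-fold higher and 2 lower, beside 9.19% and 1.65% of all windows. Expression of 31 of the 33 was called higher in iPSCs than in MEFs, beside 10.3% of all genes tested.

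Lin28a, an RNA-binding protein that blocks let-7 maturation, had 37.1, 18.5 and 12.3 normalised reads, and MEFs stood 3.02-fold above iPSCs [1.66 to 5.83]. H3 there was 20.6 and 20.5 for MEFs, 79.1 and 21.1 for pre-iPSCs and 38.9 and 14.1 for iPSCs. Its transcript was listed at 0 in both MEF libraries and reached 66.6 and 48.6 FPKM in iPSCs. Nanog had 27.4, 44.8 and 17.2, highest in pre-iPSCs, which stood 2.61-fold above iPSCs [1.56 to 4.52], with H3 at 25.7 and 25.5, 55 and 26.3, and 32.6 and 19. Fgf4, a growth factor of the early embryo, was lowest in pre-iPSCs, at 41.9, 13.9 and 22.1, and Sall4 had 31.4, 13.1 and 13.9 around its TSS, where pre-iPSCs were not the highest as they were over the wider region. Dppa3, a maternal factor, and Dppa4 had 26.6, 34 and 21.3 and 21.8, 28.6 and 12.3, and Trap1a, on chromosome X, 16.1, 16.2 and 4.91. Zfp42 and Tcfcp2l1, transcription factors of the naive state, varied little, at 16.9, 20.1 and 14.7 and at 16.1, 21.6 and 19.6. Klf4 went the other way, at 10.5, 27.8 and 39.3, while its expression was higher in both reprogrammed types, and iPSC H3 was 81.5 in replicate 1 and 23.5 in replicate 2 against 8.6 and 9.42 in MEFs.

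Pou5f1, which encodes Oct4, had the highest level of the pluripotency list in both reprogrammed types but not in MEFs, at 27.4 normalised reads in MEFs, 583 for pre-iPSCs and 191 for iPSCs. Pre-iPSCs stood 21.3-fold above MEFs [15.1 to 30.9]. H3 was 287 and 24.5 for MEFs, 778 and 293 for pre-iPSCs and 294 and 218 for iPSCs, so that the block was present in every H3 library but MEF replicate 2 and the MEF H3K9me3 library did not hold it. In bins of 1 kb the pre-iPSC H3K9me3 level stepped from 3.09 at -9.5 kb to 71.1 at -7.5 kb of the TSS, and from 140 at 8.5 kb to 3.09 at 9.5 kb. MEF H3 replicate 1 stepped at the same places, from 1.93 to 57.1 and from 97.9 to 5.64. Neighbouring Tcf19, a cell cycle gene, had 8.87, 104 and 63.8. At 0.5 kb the MEF libraries of replicate 1 were at 70.8 for H3, 71.6 for H3K4me3 and 59.9 for H3K27me3, and those of replicate 2 at 4.71, 1.58 and 12.5, so the MEF libraries differed among themselves at this stretch. The labels give all MEFs the Oct4-GFP transgene, whose extent is not stated in the sources used here. Extra copies of this stretch and a change in the mark cannot be told apart. Over chr17:35630001-35660000 H3K9me3 was 38.7, 597 and 259, with H3 at 381 and 39.9 for MEFs, 734 and 370 for pre-iPSCs and 425 and 312 for iPSCs. In pre-iPSCs the ratio of H3K9me3 to H3 was 0.813 with replicate 1 and 1.61 with replicate 2, so whether the mark exceeded H3 depended on the replicate, and in iPSCs it was 0.609 and 0.829.

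**Figure D5:**
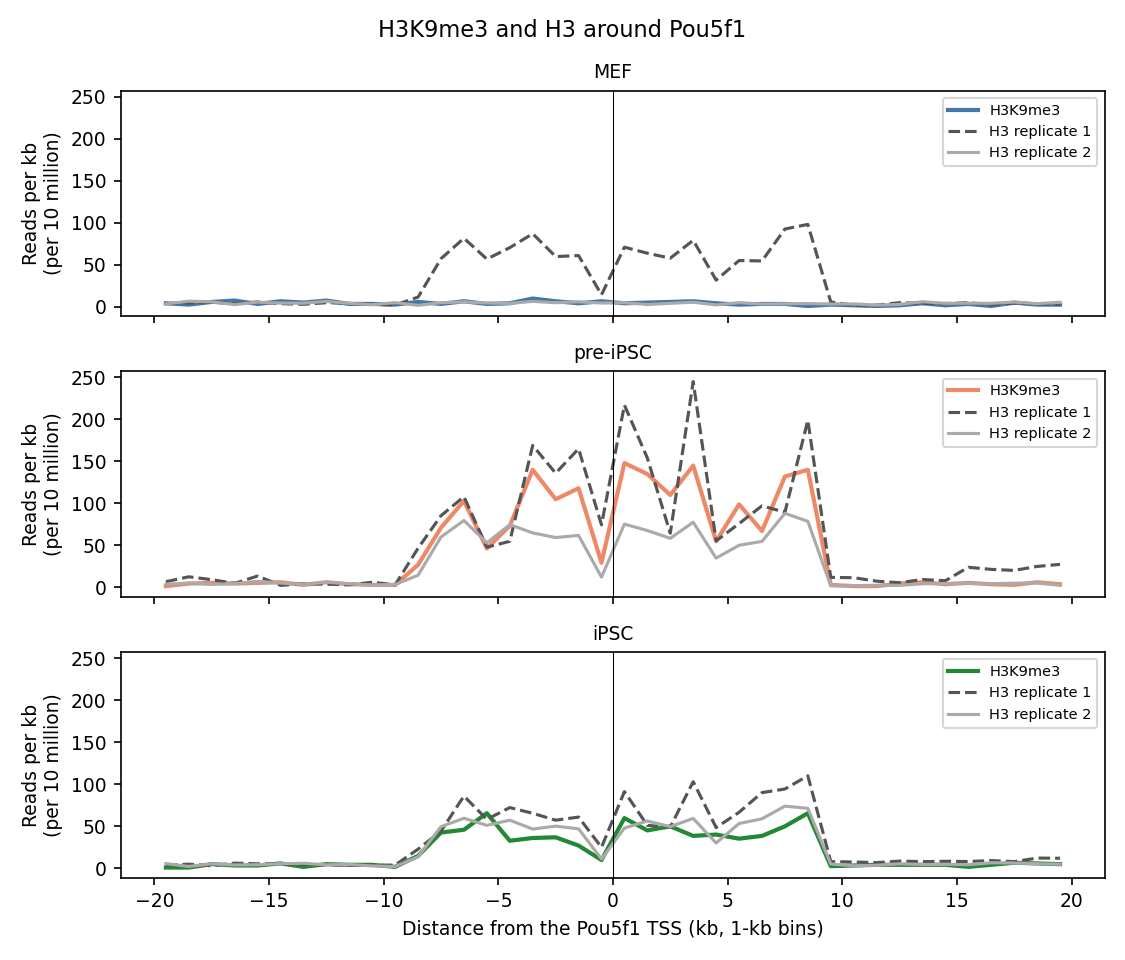
Normalised H3K9me3 and H3 reads in bins of 1 kb against distance from the Pou5f1 TSS in kb, in 1 panel per cell type with both H3 replicates. A block with sharp edges between -8.5 and 8.5 kb is seen in pre-iPSCs and iPSCs and in MEF H3 replicate 1, but not in the MEF H3K9me3 library, which is at 4.03 at 0.5 kb, or in MEF H3 replicate 2.

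All 40 fibroblast genes of the list were found, and their median TSS level was 12.9 normalised reads in MEFs, 18.5 for pre-iPSCs and 24.5 for iPSCs. Of the 40 genes 37 were higher in iPSCs than in MEFs, beside 65.5% of all TSS windows. Of 23 with enough reads 8 were 2-fold higher and 0 lower, beside 9.19% and 1.65% of all windows. A gene low in MEFs could reach the minimum of reads only through iPSCs, and could then only be called higher. The direction of these 8 calls was thus in part set by that minimum. Expression of 33 of 37 tested was called lower, beside 15.5% of all genes tested. The median log2 ratio from MEFs to iPSCs was 0.61 but -0.01 with the mean H3 difference subtracted, and the list median of H3 was 14.5 and 14.7 in MEFs and 28.8 and 19.8 in iPSCs, so H3 moved with it. Col1a1 had 8.87, 21.6 and 31.1 normalised reads, with iPSCs 3.51-fold above MEFs [1.76 to 7.6]. Tagln, an actin-binding protein of contractile cells, had 9.67, 33.2 and 24.5, while its transcript fell from 1807 and 3183 FPKM to 19.9 and 43.9 FPKM in iPSCs. Tgfb2, a ligand of the TGF-beta family, had 8.87, 15.5 and 34.4, the largest rise of the list, and Cdh11, a mesenchymal cadherin on chromosome 8, had 15.3, 31.7 and 45.8. Tcf21, a mesenchymal transcription factor, was less than 2-fold lower, at 41.1, 27.8 and 26.2. Tgfb1 had 12.9, 17.8 and 25.4, Inhba, an activin subunit, 7.26, 20.1 and 23.7, and Vcam1, an adhesion molecule, 11.3, 23.2 and 18.8.

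Promoters near imprinted control regions had less H3K9me3 in iPSCs than in MEFs. Of 29 genes in the list 21 were found, with a median TSS level of 30.6, 26.3 and 18.8 normalised reads, and H3 at 16.6 and 18.7 for MEFs, 35.2 and 17.7 for pre-iPSCs and 23.6 and 16.2 for iPSCs. In iPSCs 19 of the 21 were lower than in MEFs, and of 15 with enough reads 2 were 2-fold lower and 1 higher, beside 1.65% and 9.19% of all windows. The 2 lower ones were Peg3 and Usp29, whose windows overlap at 1 start region, so they are not separate cases. Peg10 and Sgce were also counted singly in this list though they share a start region. The median log2 ratio of -0.36 lay between -0.42 and -0.67 under the 3 other scalings. The step at which it changed depended on H3, since the median was -0.01 from MEFs to pre-iPSCs and -0.49 from pre-iPSCs to iPSCs, but -0.62 and -0.14 with the mean H3 difference subtracted. Peg3 declined in steps of 41.9, 30.1 and 14.7, and MEFs stood 2.85-fold above iPSCs [1.64 to 5.17]. H3 at Peg3 was 16.6 and 20.2, 37.4 and 15.3, and 18 and 12.6. Usp29, which shares that start region, had 41.1, 26.3 and 13.9. Peg10, a gene derived from a retrotransposon, and Sgce share a start region at 21.8, 21.6 and 6.55. Mcts2 had 36.3, 54.1 and 18.8, Zrsr1 37.9, 31.7 and 19.6, and Gnas, a G protein locus, 34.7, 36.3 and 20.5. Grb10, Magel2 and Ndn moved less, at 30.6, 17.8 and 27, at 29, 19.3 and 26.2 and at 32.2, 20.1 and 26.2. Cdh15, on chromosome 8, rose to 63 in iPSCs from 27.4 in MEFs and 27.8 in pre-iPSCs. Of 16 tested for expression from MEFs to iPSCs, 7 were called lower and 1 higher, beside 15.5% and 10.3% of all genes tested, so less of the mark did not go with calls of higher expression in this list. Peg3 was not called (limma adjusted p = 0.484, n = 2 and 2).

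Germline genes, silent in somatic cells, had median TSS levels of 22.6, 24.7 and 25.4 normalised reads for 37 genes found, above all genes in each library, and 22 of the 37 were higher in iPSCs than in MEFs, a share below the 65.5% of all TSS windows. Expression of 24 of 25 tested was called higher in iPSCs than in MEFs, with 0 lower, beside 10.3% and 15.5% of all genes tested. Only these 25 of the 37 genes found passed the filter on low values. A gene silent in MEFs could pass it only through cells that expressed it. The direction of these calls was thus in part set by the filter, and the shares of all genes are not a like baseline. Fkbp6, needed for meiosis, had the highest level in MEFs, at 61.3, 60.3 and 28.6, and its transcript was listed at 0 in MEFs and pre-iPSCs and reached 17 and 9.01 FPKM in iPSCs. Mov10l1, a helicase of the piRNA pathway, rose to 49.9 from 15.3 in MEFs and 28.6 in pre-iPSCs. Ddx4, a germ cell helicase, had 23.4, 26.3 and 33.5, and Dazl, an RNA-binding germ cell factor, was highest in pre-iPSCs at 15.3, 34.8 and 15.5.

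Clustered protocadherins, neuronal adhesion genes with 1 promoter per exon, had 30.6, 28.6 and 22.1 over 59 genes. In iPSCs 46 were lower than in MEFs, whereas 65.5% of all TSS windows were higher. Of 47 with enough reads 5 were 2-fold lower and 0 higher, beside 1.65% and 9.19% of all windows. The list median of H3 was 19.4 and 21.1 for MEFs, 30.9 and 19.7 for pre-iPSCs and 21.3 and 17.8 for iPSCs, so replicate 2 was lower in iPSCs as well. Pcdhga12 had the largest fall, at 43.5, 44 and 11.5, and was called higher in expression in iPSCs than in pre-iPSCs (limma adjusted p = 0.0223, n = 2 and 2). H3 there was 14.5 and 17.6 for MEFs, 69.6 and 23 for pre-iPSCs and 20.3 and 17.8 for iPSCs, so it fell from pre-iPSCs to iPSCs as well. Olfactory receptors, silent outside the nose, had 20.2, 15.5 and 14.7 over 1108 genes and vomeronasal receptors 12.9, 10 and 9.82 over 324. H3 was lower in reprogrammed cells over the vomeronasal list as well, at 13.9 and 12.8 for MEFs, 2.4 and 12 for pre-iPSCs and 6.59 and 10.9 for iPSCs. The median log2 ratio of olfactory receptors from MEFs to iPSCs was -0.26 and turned to 0.31 with GC content corrected and to 0.08 with H3 subtracted. Ribosomal protein genes had medians of 10.5 for MEFs, 15.5 for pre-iPSCs and 16.4 for iPSCs over 81 genes, and their median log2 ratio from MEFs to iPSCs was 0.45 but 0.07 with H3 subtracted. The genes of H3K9 enzymes and readers had 12.1, 14.3 and 15.1 over 30 genes. At most 2 of them had enough reads and 0 were called, and Setdb1 had 12.1, 5.41 and 10.6. The list of genes active at the 2-cell stage had medians of 7.26, 4.64 and 4.91 over 19 genes, of which at most 2 had enough reads.

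Bins with at least 3 times the median level numbered 161 in MEFs, in 111 domains, 112 in pre-iPSCs, in 68 domains, and 419 in iPSCs, in 319 domains, of which 181 bins lay on chromosome 8. All 3 libraries shared 49 of them. A domain found in each library was chr11:3030001-3100000 at Sfi1, a centrosome gene present in several near-identical copies, at 2258 normalised reads per bin in MEFs, 1097 for pre-iPSCs and 1308 for iPSCs, with H3 at 1049 and 1083, 781 and 812, and 991 and 852. Reads there may come from any of the copies. The domain at chr1:90110001-90210000, over the Ugt1a cluster of glucuronosyltransferases, had 148, 212 and 258, with H3 at 195 and 142, 308 and 187, and 243 and 204. Of the rich bins, 58 of 161, 50 of 112 and 55 of 419 were also 3 times the median in H3 replicate 2, and 49, 103 and 172 in H3 replicate 1.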

How the data were processed

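Chromatin was digested with micrococcal nuclease and precipitated with antibodies, and RNA was sequenced from the same cell types. The submitters' processing notes name Bowtie 1.0.1, TopHat2 2.0.4, Cufflinks 2.0.2 and the mm9 build. The authors deposited nucleosome positions with whole read counts for each chromatin library, and expression as FPKM values per gene. Positions were placed at their centre, 73 bp from the start, and summed in bins, TSS windows and gene bodies with Python 3.11.15. The H3K9me3 depth of 12222861 to 12942154 reads leaves a median of 38.5 to 39.4 normalised reads per 10-kb bin, so single bins and windows are imprecise. The deposited FPKM values were tested with limma 3.58.1 (trend) in R 4.3.3 on log2(FPKM + 1) with the replicate number as a block, leaving out genes whose mean was under 0.5 FPKM, at an adjusted p below 0.05 and 2-fold. Fold changes on that scale understate the change of low genes. H3K4me3 counts were tested with edgeR 4.0.16 (quasi-likelihood, TMM), with DESeq2 1.42.0 as an alternative. Each of these groups had 2 libraries, which the study describes as biological replicates, and p-values measure the spread between these libraries. Which clone gave each reprogrammed library is not stated in the sources used here. The scripts were tested on simulated data.

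Genes and regions were named from those a rule gave: the 8 largest rises and falls at TSSs with at least 30 reads, the 4 largest over bodies of at least 5 kb with at least 60 reads, the 3 longest runs and rich domains, the highest and most changed members of each list, up to 10 members of the pluripotency, fibroblast, imprinted and germline lists, and genes the study names. Chromosome Y was left out of named TSSs, and TSSs within 2500 bp counted as 1. Some regions were named outside that rule, after their values were seen. Among them were the chromosome 2 repeat bin, the region with Zfp382 and Zfp146, and the wider region around Pou5f1. Members and lists were chosen with earlier results of these data known. Alternatives were other scalings, minimum reads, calls of at least 2 reads, H3 subtraction, GC correction and leaving out chromosomes or libraries. Of these, leaving out chromosome 8, the requirement on all 4 H3 pairings and GC correction of list medians were chosen after seeing the data. Same-numbered libraries did not deviate together throughout (correlations of -0.205, 0.346 and 0.112 for expression and -0.0933, 0.178 and -0.129 for H3K4me3).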

Additional observations from a re-analysis of the deposited data

How the results depend on the processing

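Counts of 2-fold changed regions moved with the handling of H3, of positions with 1 read and of the minimum of reads. Restricting to positions of at least 2 reads gave 14694, 8160 and 18823 bins in place of 2961, 1441 and 5377 (MEFs to pre-iPSCs, pre-iPSCs to iPSCs, MEFs to iPSCs), 685 and 668 TSS windows in place of 358 and 196 in the first 2 comparisons, and 1509, 260 and 1643 bodies in place of 183, 48 and 409. Subtracting H3 gave 11089, 3863 and 2244 bins, 868 and 304 TSS windows against MEFs, and 436, 84 and 96 bodies. Requiring a change beyond H3 in all 4 pairings left 98, 144 and 490 bins, 27, 7 and 35 windows, and 2, 3 and 21 bodies, fewer by construction. No minimum of reads gave 746 and 1411 windows against MEFs and 440, 145 and 791 bodies. From MEFs to iPSCs, bodies numbered 221 with GC correction and 237 without chromosome 8.

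Rich bins of MEFs, pre-iPSCs and iPSCs numbered 3973, 1607 and 6654 at 2 times the median, 54, 360 and 17 after division by H3 replicate 1, 13, 8 and 130 by replicate 2, and 1321, 376 and 2770 with positions of at least 2 reads. The TSS ratio of silent to active genes was 2.78, 2.05 and 1.64 within 500 bp, 2.97, 1.44 and 1.31 with positions of at least 2 reads, and 1.87 in MEFs and 1.16 in iPSCs with classes from RNA replicate 2.

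Expression calls by limma, 2032, 1069 and 3205, became 0, 170 and 549 with no filter on low values, 2179, 1095 and 3435 with a pseudocount of 0.1 FPKM, and 1997, 1124 and 3004 with no replicate block. Leaving out 1 library gave 1071 to 2909, 90 to 2275 and 1117 to 3716, lowest without pre-iPSC replicate 2, iPSC replicate 2 and iPSC replicate 1. H3K4me3 calls by edgeR, 1953, 10 and 4667, became 239, 0 and 1159 with DESeq2, 1747, 11 and 4398 with a replicate block, and 296 to 2073, 0 to 187 and 1652 to 4424 without 1 library, lowest without MEF replicate 1 in both comparisons with MEFs. At an unadjusted p under 0.05, limma with no filter gave 4116 genes from MEFs to pre-iPSCs, and from pre-iPSCs to iPSCs DESeq2 gave 509 windows and edgeR 1970. The cause of these moves was not tested.

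Counting a gene or region once for each comparison that named it, the 48 entries for TSS windows, 24 for bodies and 18 for regions kept their direction under each alternative run on them, and 35, 21 and 9 stayed 2-fold apart with H3 subtracted. With 1 H3K9me3 library per cell type, the spread between preparations is unknown.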
